A study of Mus musculus with 17 samples.

Results

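The sodium-coupled transporters Slc5a1, Slc5a2, Slc5a8, Slc5a10 and Slc5a12 and the facilitative transporters Slc2a1, Slc2a2, Slc2a4, Slc2a5 and Slc2a9 carry glucose, other sugars, lactate or urate across the cell membrane. These 10 genes were chosen by symbol, 5 from the Slc5a family and 5 from the Slc2a family, out of 53379 gene rows in the count table. All 10 passed the filter on low counts that left 17766 genes for testing. Messenger RNA was counted in kidney cortex enriched for glomeruli, 1 library per mouse, in 3 groups of BTBR mice. BTBR ob/ob mice lack leptin through the Lep ob mutation and become obese and diabetic on this strain. Of these, 7 received atrasentan, which blocks the endothelin A receptor, at 5 mg/kg per day in the drinking water, and their genotype label is "BTBR ob". Another 5 ob/ob mice received saline, and their label is "ob/ob-d30". Both treatments began at 18 weeks of age and lasted 6 weeks, to 24 weeks. The 5 wild type BTBR mice, labelled "WT-d30", were taken at the same age with no treatment given in the labels. The meaning of "d30" is not stated in the labels, and the atrasentan and saline groups differ in this label as well as in treatment.

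Glucose filtered in the glomerulus is taken back by the proximal tubule. SGLT2, encoded by Slc5a2, takes up most of it through the apical membrane of the early proximal tubule, and SGLT1, encoded by Slc5a1, takes up the remainder further along. GLUT2, encoded by Slc2a2, lets the glucose out across the basolateral membrane into the blood. Slc5a8 and Slc5a12 encode sodium-coupled carriers of lactate and other monocarboxylates, and Slc5a10 encodes SGLT5, which carries mannose and fructose. GLUT5, encoded by Slc2a5, carries fructose. GLUT1 (Slc2a1) supplies glucose to many cell types, GLUT4 (Slc2a4) is the insulin-regulated transporter known from muscle and fat, and Slc2a9 encodes a urate transporter. Inhibitors of SGLT2 are used to treat diabetes and diabetic kidney disease.

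In the GENCODE annotation of GRCm38 the Slc5a genes are all protein coding and lie on 5 different chromosomes. Slc5a1 spans chr5:33104219-33162870 (+), Slc5a2 spans chr7:128265657-128272430 (+) and Slc5a8 spans chr10:88885992-88929515 (+). Slc5a10 spans chr11:61672781-61720826 (-), and Slc5a12 spans chr2:110597298-110647779 (+). Of the Slc2a genes, Slc2a1 spans chr4:119108711-119137983 (+), Slc2a2 spans chr3:28697903-28731359 (+) and Slc2a4 spans chr11:69942539-69948188 (-). Slc2a5 spans chr4:150119283-150144169 (+) and Slc2a9 spans chr5:38349273-38503143 (-). Some of them share exonic bases with a gene on the other strand. Slc5a2 shares 597 with BC017158 and Slc5a10 shares 393 with Fam83g and 4 with Grap. Slc2a1 shares 105 with the antisense gene Gm12868. The strand setting of the counting is not stated in the labels or files. Reads from these shared stretches cannot be told apart.

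RefSeq promoter windows on GRCm38.p6 were at hand for 7 members, and Slc5a2, Slc5a12 and Slc2a4 had none. The windows of 3 members are shown because their RNA differed from each other in the comparisons that follow. Read against other proximal tubule genes, Slc5a10 was higher in ob/ob mice of both treatments than in wild type mice. Slc2a2, like Slc5a2 and Slc5a12, was lower with atrasentan than with saline. Slc5a1, like several other members, was not called higher in saline-treated ob/ob mice. Each window is read 5′ to 3′ on the gene's strand and ends before the annotated gene. The Slc2a2 window is chr3:28697653-28697902, the Slc5a1 window chr5:33103969-33104218 and the Slc5a10 window chr11:61720827-61721049. Capitals mark CACGTG, which holds the hypoxia response core ACGTG on both strands, in Slc5a1.
Slc5a10: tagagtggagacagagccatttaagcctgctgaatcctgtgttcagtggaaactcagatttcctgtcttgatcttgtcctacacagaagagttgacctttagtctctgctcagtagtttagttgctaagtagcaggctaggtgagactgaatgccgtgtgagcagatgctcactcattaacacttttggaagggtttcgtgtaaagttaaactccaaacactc
Slc2a2: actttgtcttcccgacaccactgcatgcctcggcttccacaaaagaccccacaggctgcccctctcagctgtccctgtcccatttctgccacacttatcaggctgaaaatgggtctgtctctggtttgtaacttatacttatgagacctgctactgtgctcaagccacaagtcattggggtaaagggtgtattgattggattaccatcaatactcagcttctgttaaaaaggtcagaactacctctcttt
Slc5a1: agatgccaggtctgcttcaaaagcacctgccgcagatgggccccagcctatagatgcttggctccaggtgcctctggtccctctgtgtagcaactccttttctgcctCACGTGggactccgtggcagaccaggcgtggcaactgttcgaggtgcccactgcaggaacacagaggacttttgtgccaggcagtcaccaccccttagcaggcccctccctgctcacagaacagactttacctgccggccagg

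Each motif was searched on both strands in the 250 bases before the RefSeq start. The HNF4 letters CAAAGTCCA occur in 0.384% of 32817 RefSeq windows and had no match in a window of a member. ACGTG, found in 16.6% of windows, matched in Slc5a1 and Slc2a1. The windows of Slc5a10, Slc2a2, Slc2a5, Slc2a9 and Slc5a8 matched none of the searched letters.

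Gene reads per library ran between 37252939 and 52528747 with atrasentan, between 35938445 and 40268662 with saline and between 29161833 and 40965108 in wild type. The atrasentan libraries had fewer genes with a read (21396 to 23081) than saline (24335 to 25313) and wild type libraries (23901 to 24877), and a lower share of reads outside genes (3.17% to 5.65%, against 5.95% to 8.17% and 6.26% to 8.58%). Markers of glomerular cells were present throughout. The podocyte gene Nphs1 had 24.4 to 63.1 CPM (read counts scaled to library size, with TMM factors) with atrasentan, 60.3 to 120 with saline and 135 to 208 in wild type, and the endothelial gene Pecam1 had at least 762 CPM in every library. Tubule RNA was present too. A list of 24 proximal tubule markers, with no member in it, had a mean log2 CPM of 5.06 ± 0.84 in atrasentan libraries (SD, n = 7), 7.72 ± 1.00 in saline libraries (n = 5) and 6.42 ± 0.38 in wild type libraries (n = 5). It ran between 3.87 and 6.61 with atrasentan, where library 6 was highest and library 7 lowest, between 6.58 and 8.74 with saline, where libraries 1 and 3 were highest, and between 6.03 and 6.97 in wild type. Markers of the early (S1) part of the proximal tubule averaged 5.02 with atrasentan, against 7.83 with saline and 6.37 in wild type, and those of its last part (S3) 0.81, 2.26 and 1.62. The 9 S3 markers did not move together. Their log2 fold changes ran between -2.29 and 3.58 in saline against wild type (median 1.12). In atrasentan against wild type they ran between -6.48 and 3.93 (median 0.28). Lists of other tubule segments were also highest with saline. The loop of Henle list averaged 4.54 with atrasentan, against 6.12 with saline and 5.76 in wild type, the distal tubule list 3.96, 5.43 and 4.22 and the collecting duct list 2.61, 4.05 and 2.49. In saline against wild type 3 of 9 distal tubule and 2 of 11 collecting duct markers rose. Of all genes 5.12% were called in that comparison, 3.21% higher. In atrasentan against saline 3 of 9 loop, 3 of 9 distal tubule and 2 of 11 collecting duct markers fell. Of all genes 18.5% were called lower there, and the collecting duct count was near that share. The part of these segments in the transporter values was not tested. The podocyte list (22 genes) averaged 6.41 ± 0.57 in atrasentan, 7.37 ± 0.43 in saline and 8.25 ± 0.29 in wild type libraries. Of its genes 8 fell in saline against wild type, where 5.12% of all genes were called in both directions together. In atrasentan against saline 12 fell, where 18.5% of all genes were called lower. Other glomerular cells did not follow the podocyte list. The glomerular endothelium list (15 genes) averaged 9.75 with atrasentan, against 9.24 with saline and 9.12 in wild type. The list of mesangium and smooth muscle (12 genes) averaged 7.23, 6.82 and 6.80. In atrasentan against saline 12 of 15 endothelial and 5 of 12 mesangial markers rose, and none fell. Of all genes 33.8% were called there in both directions together, and 18.5% were called lower. Fewer proximal tubule cells in a sample and less RNA per cell cannot be told apart in such bulk libraries.

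**Figure D1:**
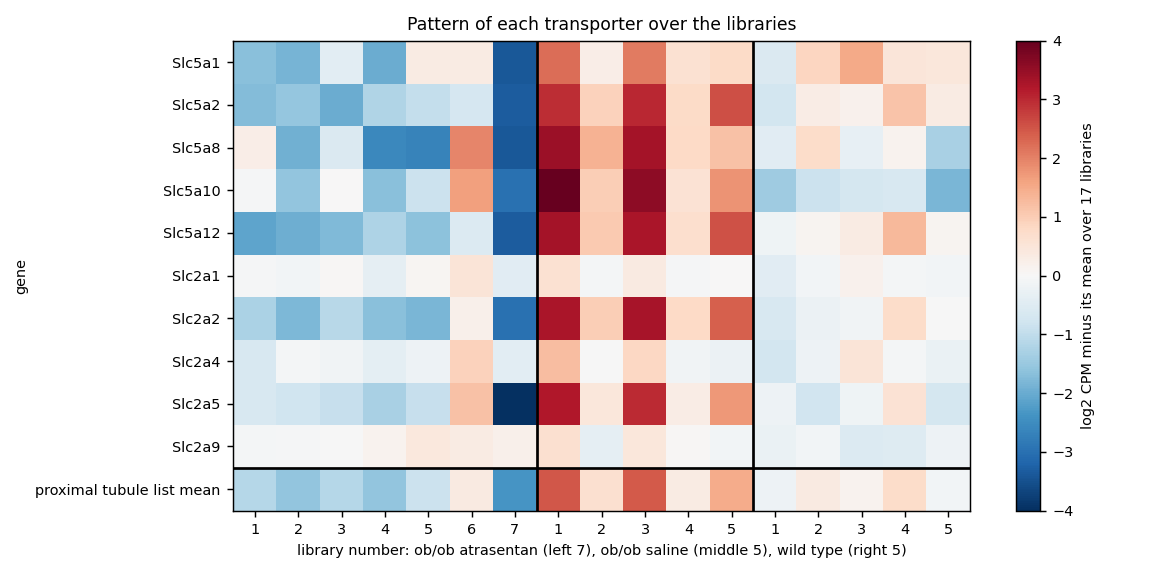
Log2 CPM of each of the 10 transporters, and the mean of 24 proximal tubule markers, less the mean of the same row over 17 libraries, by library number within the atrasentan, saline and wild type groups. Most rows are highest in saline libraries 1 and 3 and lowest in atrasentan library 7, while the rows of Slc2a1, Slc2a4 and Slc2a9 stay near 0.

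Compared per length, as CPM per kilobase of annotated exon (RPKM), SGLT2 RNA led the members in saline and wild type libraries. In atrasentan libraries the highest medians were those of Slc2a1 (8.57 RPKM), Slc2a4 (8.03 RPKM) and Slc5a2 (6.70 RPKM), and the ranges of these neighbours overlapped. In saline libraries Slc5a2 had a median of 118 RPKM, followed by Slc5a12 at 32.3, Slc2a2 at 18.0 and Slc5a10 at 17.2 RPKM. Within every saline library Slc5a2 stood above Slc5a12 and Slc5a12 above Slc2a2, although the ranges over libraries overlapped. In wild type libraries Slc5a2 had a median of 24.3 RPKM and lay above the range of the next gene, Slc2a1, at 8.16 RPKM. Slc2a4 (8.07 RPKM), Slc5a12 (6.07 RPKM) and Slc5a1 (5.52 RPKM) came next there, each overlapping its neighbour. Slc5a8 was last in atrasentan (0.214 RPKM) and wild type libraries (0.658 RPKM), and Slc2a9 was last in saline libraries (1.83 RPKM).

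**Figure D2:**
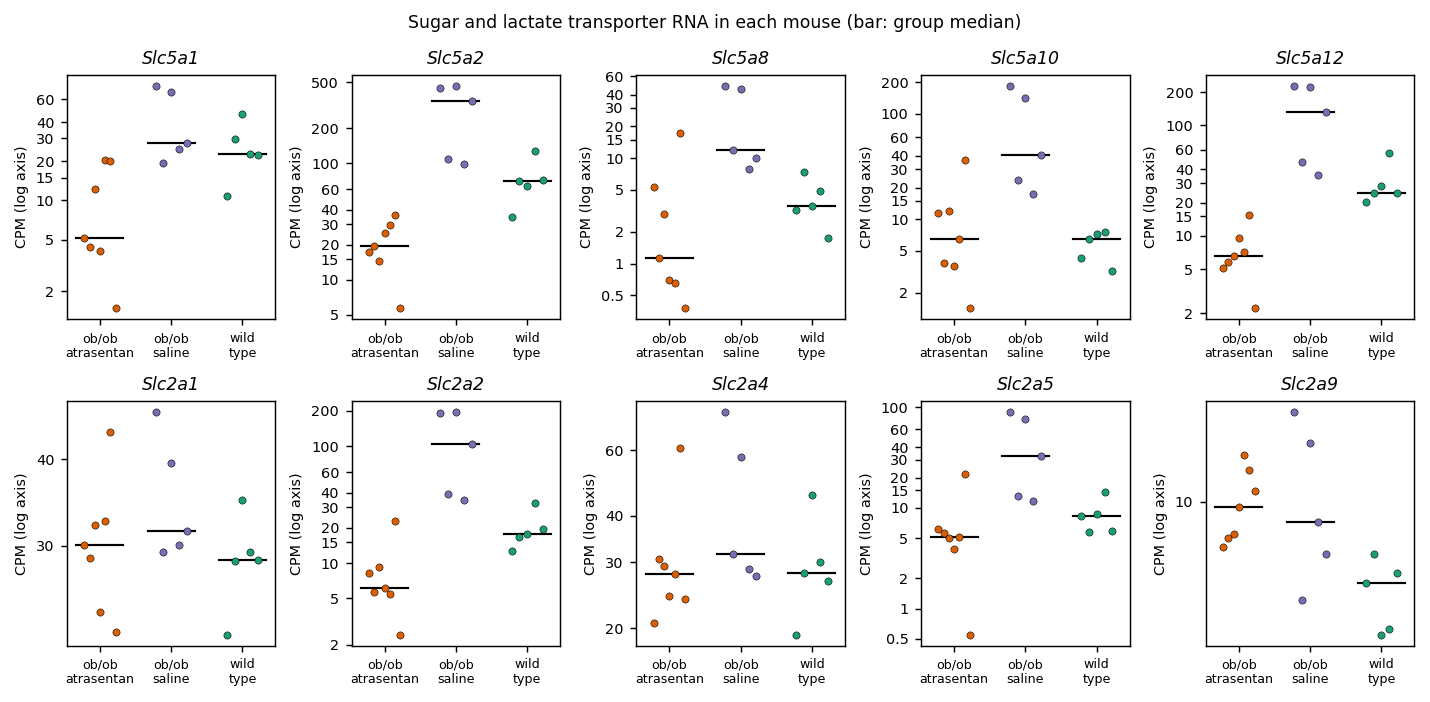
CPM of each transporter on a log axis in every mouse, by group from left to right (ob/ob atrasentan, n = 7; ob/ob saline, n = 5; wild type, n = 5), with bars at group medians. The Slc5a genes, Slc2a2 and Slc2a5 are spread widely and sit highest with saline, while Slc2a1 stays between 22.3 and 46.9 CPM in all 17 mice.

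The comparison of ob/ob mice on saline with wild type mice asks what differs in the diabetic kidney. In it 4 of the 10 transporters rose and none fell (edgeR quasi-likelihood test, adjusted p under 0.05). They were Slc5a2, Slc5a10, Slc5a12 and Slc2a2, genes of apical sugar and lactate uptake and of basolateral glucose exit. Over all 17766 genes 5.12% were called in this comparison, 3.21% higher. The median log2 fold change of the 10 members was 2.04, against 0.0056 over all genes, and the ranges of Slc5a8, Slc5a10 and Slc2a2 lay above those of wild type with no overlap, as did 3.46% of all genes. The same list of 24 proximal tubule markers was higher in these libraries, with 9 rising and 1 falling (median 1.77). When this mean entered the fit as a covariate, which called 0.315% of all genes, no member was called. With DESeq2, which called 11.3% of all genes, 7 members rose. With the glomerular share (podocyte minus proximal tubule list mean) as a covariate, where 0.0338% were called, no member was called. Of glomerular cells this share counts podocytes alone. It leaves out the endothelial and mesangial lists, which were highest with atrasentan, and so does not stand for all glomerular RNA. The comparison of atrasentan with saline in ob/ob mice asks what differs under blockade of the receptor. In it 7 members fell and none rose, and 33.8% of all genes were called, 18.5% lower. Those 7 were all 5 Slc5a members, Slc2a2 and Slc2a5. The median of the 10 members was -2.65, against -0.0051 over all genes, and 3 members (Slc5a2, Slc5a12 and Slc2a2) did not overlap with saline, as was so for 5.76% of all genes. Of the 24 proximal tubule markers 20 fell and none rose (median -2.96), and when their mean entered as a covariate, where 0.259% of all genes were called, no member was called. The glomerular share covariate left 3 members called (Slc5a2, Slc5a12 and Slc2a2) and 11.9% of all genes, and without saline libraries 1 and 3 there were 3 members called and 14% of all genes.

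In atrasentan-treated ob/ob against wild type mice 2 members fell, Slc5a2 and Slc5a12, and 1 rose, Slc2a9. Among all genes 29.2% were called here, 14.5% lower and 14.7% higher. The median of the 10 members was -0.18, against -0.0088 over all genes. Slc5a12 lay below wild type with no overlap, as did 7.06% of all genes, and Slc2a9 above it, as did 6.16%. Of the 24 proximal tubule markers 10 fell and none rose (median -1.05). Both falls were lost against these markers. With their mean as a covariate Slc5a2 was at -0.51 (adjusted p = 0.286) and Slc5a12 at -0.66 (adjusted p = 0.108), and with it as an offset at -0.46 and -0.74 (adjusted p = 0.333 and 0.104). The 5 members called with the covariate were all higher, beside 22.2% of all genes called. The glomerular share covariate gave 5 members called, all lower, and 34.1% of all genes, and leaving out saline libraries 1 and 3 gave 5, of which 4 were lower, and 28.4%. The 3 comparisons share groups of mice, so their fold changes for a gene are not independent of each other.

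**Figure D3:**
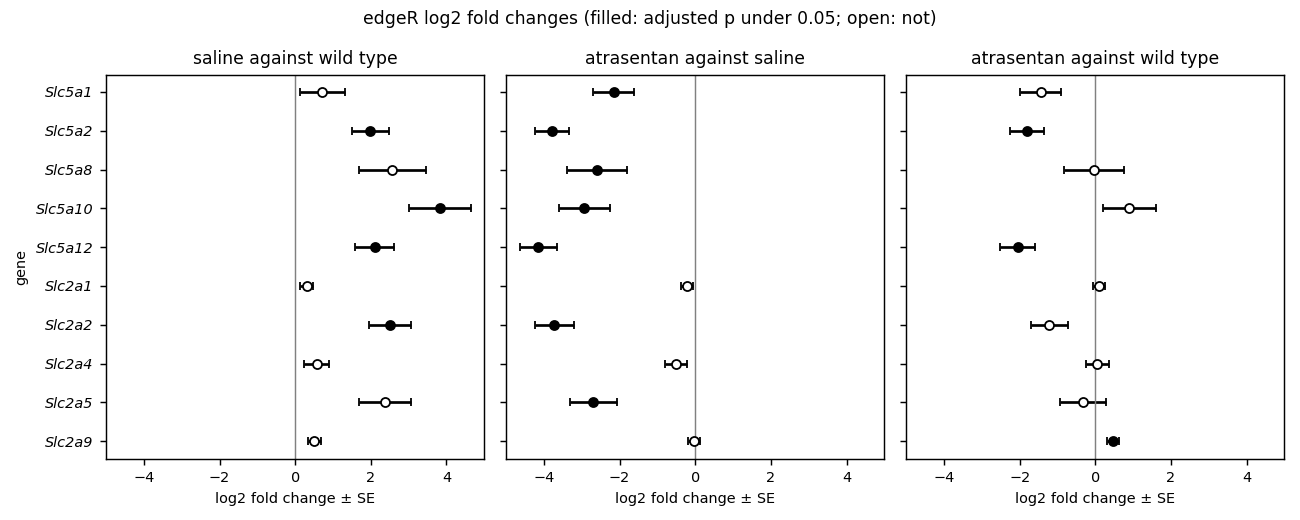
Log2 fold change of each transporter with its standard error (edgeR, all 17 libraries in 1 fit) in saline against wild type, atrasentan against saline and atrasentan against wild type. Filled points have an adjusted p under 0.05.

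Slc5a2, the main carrier of filtered glucose, had between 5.67 and 36.1 CPM with atrasentan (median 19.4). Saline-treated mice had 441, 108, 467, 97.9 and 342 CPM, and wild type mice had 34.8, 70.4, 64.4, 128 and 71.6 CPM. All 7 atrasentan mice lay below every saline mouse, and saline libraries 2 and 4 lay within the wild type range. Slc5a2 fell by 3.79 ± 0.46 on the log2 scale with atrasentan against saline (SE, adjusted p = 0.000107), a 13.8-fold difference. Against wild type it fell by 1.81 ± 0.44 with atrasentan (adjusted p = 0.00527) and rose by 1.98 ± 0.49 with saline (adjusted p = 0.0306). BC017158, which shares exonic bases with Slc5a2, was called in none of the comparisons (log2 fold changes between -0.33 and 0.34). Slc5a1, the second glucose carrier, was less different between the groups. It had between 1.48 and 20.4 CPM with atrasentan (median 5.10), 76.3, 19.5, 68.4, 24.7 and 27.5 CPM with saline and 10.9, 29.7, 46.0, 22.6 and 22.4 CPM in wild type. Saline libraries 1 and 3 alone exceeded the wild type range. Slc5a1 fell by 2.16 ± 0.55 with atrasentan against saline (adjusted p = 0.00669). Its log2 fold change was 0.72 ± 0.59 with saline (adjusted p = 0.534) and -1.44 ± 0.55 with atrasentan (adjusted p = 0.0551) against wild type. That last value passed without atrasentan library 5 or 6, saline library 1 or wild type library 1 (adjusted p between 0.0250 and 0.0463).

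Slc5a12, a lactate carrier of the early proximal tubule, had the highest fold change of the members between the ob/ob groups. It had between 2.21 and 15.5 CPM with atrasentan (median 6.63). With saline it had 229, 46.9, 220, 35.7 and 131 CPM, and in wild type 20.2, 24.6, 28.5, 56.2 and 24.5 CPM. Every atrasentan mouse lay below every mouse of both other groups. The fall was 4.16 ± 0.49 on the log2 scale against saline (adjusted p = 9.62e-05, 17.8-fold) and 2.05 ± 0.47 against wild type (adjusted p = 0.00340), and with saline against wild type Slc5a12 rose by 2.11 ± 0.52 (adjusted p = 0.0297). Slc5a8, the other monocarboxylate carrier, was low in atrasentan and wild type mice. It had between 0.378 and 17.4 CPM with atrasentan (median 1.14), where the lowest library held 13 reads and library 6 the highest value. It had 48.8, 11.8, 45.0, 7.84 and 10.1 CPM with saline and 3.26, 7.39, 3.51, 4.87 and 1.77 CPM in wild type. All saline mice exceeded all wild type mice, yet the log2 fold change of 2.57 ± 0.89 did not pass (adjusted p = 0.0956), and it passed without atrasentan library 6 (adjusted p = 0.0339). Slc5a8 fell by 2.60 ± 0.79 with atrasentan against saline (adjusted p = 0.0179), a call that was lost without saline library 1 or 3 (adjusted p = 0.0513 and 0.0540).

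Slc5a10, the mannose and fructose carrier SGLT5, had the highest fold change of the members between saline and wild type. Atrasentan mice had between 1.43 and 36.3 CPM (median 6.43), and library 6 was the highest. Saline mice had 186, 23.3, 141, 17.5 and 40.6 CPM, against 4.32, 6.42, 7.24, 7.54 and 3.24 CPM in wild type mice. The lowest saline value was thus above the highest wild type value, while atrasentan mice lay on both sides of wild type. Slc5a10 rose by 3.83 ± 0.81 on the log2 scale with saline against wild type (adjusted p = 0.0169, 14.2-fold) and fell by 2.93 ± 0.68 with atrasentan against saline (adjusted p = 0.00390). Atrasentan against wild type gave 0.89 ± 0.70 (adjusted p = 0.359). Fam83g, which shares exonic bases with Slc5a10, also rose by 1.87 ± 0.51 with saline against wild type (adjusted p = 0.0429) and fell by 2.75 ± 0.47 with atrasentan against saline (adjusted p = 0.000496), and its part in the Slc5a10 reads was not tested.

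The 4 calls between saline and wild type were each lost in some fits that left out 1 library. Those of Slc5a2, Slc5a12 and Slc2a2 were each lost without saline library 1 or 3 or wild type library 1, 2, 3 or 5, with log2 fold changes that stayed between 1.75 and 2.50 and adjusted p between 0.0528 and 0.0922. That of Slc5a2 was also lost without saline library 5 (adjusted p = 0.0525). That of Slc5a10 was lost without wild type library 5 (3.68, adjusted p = 0.0553). Without saline libraries 1 and 3 together no member was called in this comparison, where 0.294% of all genes were called.

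Slc2a2, which encodes the basolateral glucose exit carrier GLUT2, followed Slc5a2. Atrasentan mice had between 2.44 and 23.0 CPM (median 6.10), with library 6 far above the others, which reached at most 9.20 CPM. Saline mice had 192, 39.2, 196, 34.5 and 103 CPM, and wild type mice had 12.6, 16.8, 17.9, 32.9 and 19.4 CPM. Saline mice lay above all mice of both other groups. Slc2a2 fell by 3.72 ± 0.51 on the log2 scale with atrasentan against saline (adjusted p = 0.000184, 13.2-fold) and rose by 2.51 ± 0.55 with saline against wild type (adjusted p = 0.0205). With atrasentan against wild type its value was -1.22 ± 0.49 (adjusted p = 0.0691), and it passed without atrasentan library 6 (-1.69, adjusted p = 0.00842). Slc2a5, the fructose carrier GLUT5, had between 0.553 and 21.8 CPM with atrasentan (median 5.11). It had 89.4, 13.2, 76.5, 11.8 and 32.5 CPM with saline and 8.33, 5.70, 8.60, 14.4 and 5.89 CPM in wild type. Of the 7 atrasentan mice 5 lay below every wild type mouse and 1, library 6, lay above them all. Saline libraries 1, 3 and 5 exceeded all wild type mice. Slc2a5 fell by 2.70 ± 0.62 with atrasentan against saline (adjusted p = 0.00359). Its value of 2.38 ± 0.69 with saline against wild type missed the threshold (adjusted p = 0.0535), passing without saline library 2 or 4 or atrasentan library 6 or 7 (adjusted p between 0.0219 and 0.0333).

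Slc2a1, Slc2a4 and Slc2a9 varied far less. Slc2a1, the widely used glucose transporter GLUT1, had between 22.5 and 43.8 CPM with atrasentan (median 30.1), 46.9, 29.3, 39.5, 30.1 and 31.5 CPM with saline and 22.3, 28.5, 34.9, 29.3 and 28.6 CPM in wild type. All groups overlapped, and no comparison was called. The log2 fold changes were 0.30 ± 0.17 with saline against wild type, -0.21 ± 0.16 with atrasentan against saline and 0.09 ± 0.16 with atrasentan against wild type (adjusted p = 0.338, 0.315 and 0.716). Slc2a4, the insulin-regulated GLUT4, had between 20.6 and 60.6 CPM with atrasentan (median 27.9), where library 6 stood apart from the others at up to 30.6 CPM. Saline mice had 76.0, 31.6, 57.4, 28.9 and 27.5 CPM, and wild type mice had 19.2, 28.1, 45.5, 30.1 and 26.8 CPM. Saline libraries 1 and 3 were again the highest in their group. Slc2a4 was called in none of the comparisons (0.57 ± 0.32, -0.51 ± 0.30 and 0.05 ± 0.30 in the same order, adjusted p = 0.334, 0.189 and 0.911), and without atrasentan library 6 it fell by 0.76 against saline (adjusted p = 0.0294). Defining fat and muscle markers were near 0 in all groups. Of 8 markers each, 2 fat and 3 muscle genes had enough reads to be tested. The fat list summed to 67.0 to 647 CPM in atrasentan, 314 to 2306 in saline and 128 to 353 in wild type mice, and it holds Pck1, also a proximal tubule gene. The summed muscle list was at most 2.74 CPM. Adipoq reached at most 0.472 CPM, Lep 0.0263 and Ckm 0.252 CPM, and Myh4 had no read.

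Slc2a9, the urate transporter, was the 1 member called higher with atrasentan than in wild type. Atrasentan mice had between 8.46 and 11.9 CPM (median 9.80), saline mice had 13.9, 6.96, 12.4, 9.29 and 8.24 CPM, and wild type mice had 7.42, 8.23, 6.13, 6.27 and 7.69 CPM. All atrasentan mice lay above all wild type mice, and the saline range held both groups' upper values. Slc2a9 rose by 0.47 ± 0.17 on the log2 scale with atrasentan against wild type (adjusted p = 0.0409), a call lost in 8 of the 17 fits that left out 1 library (adjusted p between 0.0554 and 0.104). These were the fits without atrasentan library 4, 5, 6 or 7 or wild type library 1, 3, 4 or 5. Its values were 0.51 ± 0.18 with saline against wild type (adjusted p = 0.100), which passed without saline library 2 (0.61, adjusted p = 0.0391), and -0.03 ± 0.16 with atrasentan against saline (adjusted p = 0.889).

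The members were next read against proximal tubule RNA in the same library, as log2 CPM minus the mean of the 24 markers. A fit with that mean as an offset tested these differences over all genes. Slc5a10 was higher relative to the proximal tubule list in ob/ob mice of both treatments than in wild type mice. Relative to the list it lay between -3.31 and -1.43 with atrasentan (median -2.69), at -1.20, -2.33, -1.55, -2.44 and -2.39 with saline and at -3.90, -3.91, -3.50, -4.05 and -4.42 in wild type. Both ob/ob groups lay above wild type with no overlap. On this scale Slc2a2 also lay above wild type with no overlap in saline mice, and Slc2a1, Slc2a4 and Slc2a9 in atrasentan mice. The share of all genes without overlap was not counted on this scale. With the offset, 69.4% of all genes were called higher with atrasentan than in wild type, so such a position was common there. With the offset Slc5a10 was the 1 member called between saline and wild type (2.05, adjusted p = 0.0170), where 1.64% of all genes were called and 0.0338% of all genes were called higher. It was also higher with atrasentan than in wild type (1.81, adjusted p = 0.00185). Between atrasentan and saline it was not called (-0.24, adjusted p = 0.588). With the list mean as a covariate instead, Slc5a10 was not called between saline and wild type (1.26, adjusted p = 0.0835). The offset moved the median of all genes to -1.07 with saline against wild type and to 1.49 with atrasentan against wild type, where 69.4% of all genes were called higher and 0.923% lower.

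**Figure D4:**
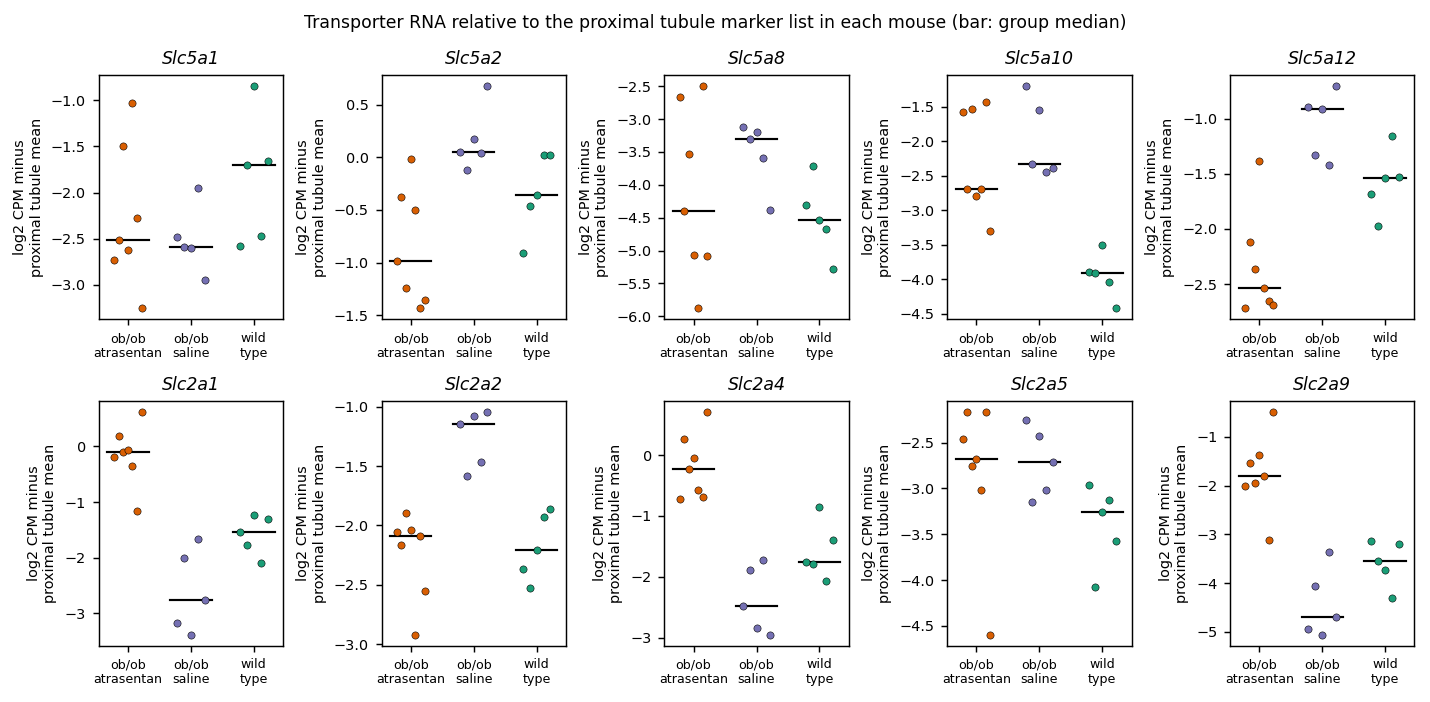
Log2 CPM of each transporter minus the mean log2 CPM of 24 proximal tubule markers in the same mouse, in the atrasentan (n = 7), saline (n = 5) and wild type (n = 5) groups, with bars at group medians. Slc5a10 lies above wild type in all ob/ob mice, and Slc5a12 and Slc2a2 are highest with saline.

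Against the same list, 3 members were lower with atrasentan than with saline, a direction in which the offset fit called 0.298% of all genes. Slc5a12 fell by 1.27 (adjusted p = 0.00397), Slc2a2 by 0.97 (adjusted p = 0.0217) and Slc5a2 by 0.95 (adjusted p = 0.0331). With the list mean as a covariate instead, none of the 3 was called. Slc5a12 was then at -1.125, Slc2a2 at -0.61 and Slc5a2 at -1.04 (adjusted p = 0.214, 0.335 and 0.310). The 24 markers themselves differed widely in this comparison, with log2 fold changes between -3.815 and 0.08. Slc2a2 relative to the list lay between -2.92 and -1.90 with atrasentan and between -1.58 and -1.04 with saline, with no overlap, and between -2.52 and -1.86 in wild type. Slc5a12 lay between -2.72 and -1.39 with atrasentan, between -1.41 and -0.70 with saline and between -1.98 and -1.16 in wild type, so that the ob/ob groups touched in 1 atrasentan library. Slc5a2 lay between -1.44 and -0.01 with atrasentan, between -0.12 and 0.68 with saline and between -0.91 and 0.02 in wild type, and all ranges overlapped. Slc5a1, Slc5a8, Slc5a10 and Slc2a5 were not called with the offset between atrasentan and saline (between -0.24 and 0.38). Slc2a1, Slc2a4 and Slc2a9 were higher relative to the list with atrasentan than with saline (2.37, 2.20 and 2.70), as were 87.2% of all genes, and the median of all genes was 2.58. With the mean as a covariate, which lets each gene follow the list at its own slope, Slc5a10 (2.47, adjusted p = 5.40e-05), Slc2a5, Slc2a1, Slc2a4 and Slc2a9 were higher with atrasentan than in wild type (0.49 to 1.13 for the other 4), where 22.2% of all genes were called.

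The balance between transporters with linked roles was read per library as a log2 ratio of reads per kilobase. SGLT2 over SGLT1 RNA (Slc5a2 over Slc5a1) was 1.94 ± 0.89 in atrasentan mice (SD, n = 7), 3.18 ± 0.61 in saline mice (n = 5) and 2.02 ± 0.73 in wild type mice (n = 5), and the ranges overlapped. Apical entry over basolateral exit (Slc5a2 over Slc2a2) was 2.40 ± 0.69 in atrasentan, 2.42 ± 0.21 in saline and 2.83 ± 0.23 in wild type mice. GLUT2 over GLUT1 RNA (Slc2a2 over Slc2a1) was -2.82 ± 0.71 in atrasentan, 0.62 ± 0.97 in saline and -1.30 ± 0.45 in wild type mice. In that last ratio saline mice lay above all mice of the other groups, and GLUT2 RNA was 0.0666 to 0.319 times GLUT1 RNA with atrasentan, 0.699 to 3.03 times with saline and 0.312 to 0.683 times in wild type.

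Of 16 other transporters of the Slc5a and Slc2a families and of Slc50a1, 11 were tested, and 5 had too few reads (Slc5a4a, Slc5a4b, Slc5a5, Slc5a7 and Slc2a7). With saline against wild type 1 rose, Slc5a9, a mannose and fructose carrier, by 2.20 ± 0.59 (adjusted p = 0.0418). Of all genes 3.21% were called higher there. With atrasentan against saline 4 fell and 2 rose, where 33.8% of all genes were called, 18.5% lower. Slc5a9 fell by 3.44 ± 0.55, the inositol carriers Slc5a11 and Slc5a3 by 3.07 ± 0.54 and 0.98 ± 0.26, and Slc2a12 (GLUT12) by 1.79 ± 0.35 (adjusted p of at most 0.00884). Slc5a9 had between 0.378 and 3.65 CPM with atrasentan, between 4.83 and 24.5 with saline and between 2.06 and 6.21 in wild type. Slc2a12 had between 2.29 and 8.81 CPM with atrasentan, 16.2, 5.76, 17.1, 23.3 and 15.8 CPM with saline and 22.9, 18.3, 27.8, 16.7 and 14.2 CPM in wild type. It was below wild type in every atrasentan mouse (-2.14 ± 0.35, adjusted p = 0.000260) and was also called lower with the proximal tubule covariate (-1.98, adjusted p = 0.00388). With the offset Slc2a12 was not called against wild type (-0.77, adjusted p = 0.141). Against saline it was called neither with the covariate (-1.45, adjusted p = 0.249) nor with the offset (0.67, adjusted p = 0.183).

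Slc2a6 and Slc2a3 moved the other way. Slc2a6, a transporter known from myeloid cells, had between 6.97 and 18.0 CPM with atrasentan, between 2.16 and 5.73 with saline and between 2.31 and 5.25 in wild type, with no overlap between atrasentan and the others. It rose by 1.53 ± 0.30 against saline (adjusted p = 0.00124) and by 1.62 ± 0.30 against wild type (adjusted p = 0.000743). Slc2a3, the glucose transporter GLUT3, known from neurons and white blood cells, had between 12.9 and 18.5 CPM with atrasentan, 7.30 to 13.5 with saline and 6.72 to 11.2 in wild type, and rose by 0.68 ± 0.17 against saline and 0.82 ± 0.17 against wild type (adjusted p = 0.00536 and 0.00152). Macrophage markers were also higher in these libraries. Of 12, 9 rose against saline, where 33.8% of all genes were called in both directions together. Against wild type 8 rose, where 14.7% of all genes were called higher. The 12 markers summed to 417 to 1497 CPM in atrasentan, 271 to 466 in saline and 281 to 699 in wild type mice. The part of macrophages in the Slc2a6 and Slc2a3 values was not tested. Against wild type the inositol carrier Slc2a13 and the intracellular transporter Slc2a8 also rose with atrasentan, by 0.60 ± 0.19 and 0.40 ± 0.11 (adjusted p = 0.0253 and 0.0124). In that comparison 4 of the 11 tested transporters rose and 1 fell, and 29.2% of all genes were called.

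**Figure D5:**
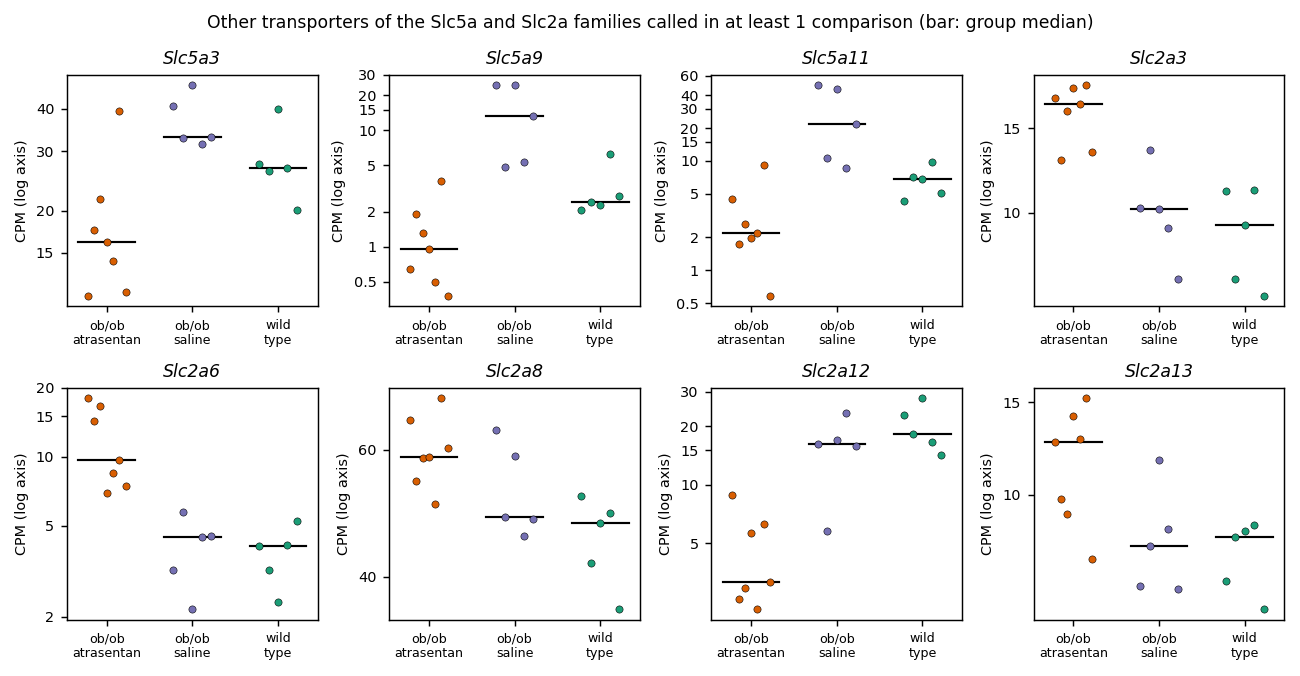
CPM on a log axis of the 8 other family members called in at least 1 comparison, in every atrasentan, saline and wild type mouse, with bars at group medians. Slc5a9 and Slc5a11 are highest with saline and lowest with atrasentan, Slc2a12 is low with atrasentan, and Slc2a3 and Slc2a6 are high with atrasentan.

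Genes that work with the members were read from the same fit, and the counts for each list stand beside the shares of all genes called. These were 5.12% with saline against wild type (3.21% higher), 33.8% with atrasentan against saline (18.5% lower) and 29.2% with atrasentan against wild type (14.7% higher, 14.5% lower). With the proximal tubule mean in the fit, none of the 10 called genes that the naming rule picked outside the members with saline against wild type was still called, none of 22 with atrasentan against saline, and 12 of 15 with atrasentan against wild type. Among 8 partners and regulators of the SGLT proteins, 2 rose with saline against wild type and 7 fell with atrasentan against saline. The transcription factor Hnf4a and the scaffold Pdzk1 rose by 2.21 ± 0.55 and 2.19 ± 0.53 with saline against wild type (adjusted p = 0.0317 and 0.0281). Between the ob/ob groups Hnf4a fell by 3.26 ± 0.51 and Pdzk1 by 3.03 ± 0.48 (adjusted p of at most 0.000351). Of 7 genes of fructose use and glucose synthesis, 3 rose with saline against wild type, 6 fell with atrasentan against saline and 1 fell with atrasentan against wild type. Fbp1, an enzyme of glucose synthesis, rose by 2.33 ± 0.54 and the sorbitol dehydrogenase Sord by 1.71 ± 0.44 with saline (adjusted p = 0.0241 and 0.0339). Between the treated and saline ob/ob mice Fbp1 fell by 3.24 ± 0.49, G6pc, which releases free glucose, by 3.23 ± 0.60 and Pck1, an early enzyme of glucose synthesis, by 2.80 ± 0.65, and Tkfc, a kinase of fructose breakdown, fell by 1.15 ± 0.35 against wild type. Hnf4a, Fbp1 and Pck1 are also among the 24 proximal tubule markers, as are Slc22a6 and Slc22a8 of the urate list.

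Of 8 lactate and pyruvate genes 1 rose with saline against wild type, Ldha, a lactate dehydrogenase subunit, by 0.42 ± 0.11 (adjusted p = 0.0372). With atrasentan against saline 3 fell, the lactate transporter Slc16a1 by 2.14 ± 0.42, Ldhb by 1.41 ± 0.42 and the mitochondrial pyruvate carrier Mpc2 by 0.77 ± 0.22, and against wild type Slc16a1 fell by 1.54 ± 0.42 while Ldha rose by 0.46 ± 0.10. Both counts of lactate genes, 3 and 2 of 8, were near the shares of all genes called in these comparisons (33.8% and 29.2%). Of 9 urate genes 8 were tested. With saline against wild type 2 rose, the phosphate and urate transporter Slc17a1 by 2.33 ± 0.63 and the urate exporter Abcg2 by 1.04 ± 0.22 (adjusted p = 0.0421 and 0.0178). In atrasentan against saline mice 7 fell and 1 rose, with falls of 3.28 ± 0.58 for Slc17a1, 3.12 ± 0.52 for Slc17a3 and 3.08 ± 0.56 for Slc22a8. Xdh, which makes urate, was the 1 that rose with atrasentan against wild type, by 1.69 ± 0.24 (426 ± 99.1 CPM, n = 7, against 132 ± 36.6 CPM, n = 5, adjusted p = 9.96e-05).

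Genes of glucose entry into glycolysis and of GLUT4 traffic showed smaller changes. Of 11 glycolysis entry genes none was called with saline against wild type. Hexokinase 1, Hk1, was the 1 that rose with atrasentan against saline (0.32 ± 0.10, adjusted p = 0.0184). Against wild type 7 rose with atrasentan, among them the phosphofructokinase Pfkl (0.65 ± 0.13) and the hexokinase Hk3 (1.74 ± 0.49). Of 13 genes of insulin signalling and GLUT4 traffic, Tbc1d4, which restrains GLUT4 vesicles, fell with saline against wild type (-0.43 ± 0.09, adjusted p = 0.0152) and likewise with atrasentan (-0.44 ± 0.08, adjusted p = 0.000766). With atrasentan against saline 4 rose, among them Mef2c (0.46 ± 0.11), Pik3r1 (0.42 ± 0.15) and Mef2a (0.37 ± 0.11), while against wild type 4 rose, Sort1 by 0.63 ± 0.18 and Mef2a by 0.55 ± 0.11 among them. With 4 of 13 called against saline and 5 of 13 against wild type, this list too was near the shares of all genes called (33.8% and 29.2%).

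The genes whose pattern over the 17 libraries was closest to each member were found by the root mean square difference of centred log2 CPM over 17766 genes. For Slc5a2 they were Hsd3b2 (0.30) and Ugt2b38 (0.32), where the pattern of Slc5a2 itself had a spread of 1.73. Slc2a2 was closest to Slc16a12 (0.27) and the sodium bicarbonate transporter Slc4a4 (0.28), and Slc5a12 to Lrrc19 (0.35) and the amino acid transporter subunit Slc7a9 (0.37). Slc5a10 was closest to Nat8 (0.48) and Nat8f5 (0.50), members of a family of similar copies whose reads may be shared. Slc5a8 came nearest to Bhmt2 (0.47) and Cyp4a10 (0.55), Slc5a1 to Mfsd4b3 (0.37) and Echdc2 (0.43) and Slc2a5 to Pcx (0.39) and Car14 (0.40). The narrow patterns of Slc2a1, Slc2a4 and Slc2a9, with spreads of 0.29, 0.54 and 0.32, were closest to those of Llgl2 (0.15), Mturn (0.18) and Dtnbp1 (0.17).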

How the data were processed

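The authors deposited raw read counts per gene for 17 libraries and a normalized table of log2 values for 17338 genes, used for 1 alternative; how it was transformed is not stated. Per the labels' protocols, poly(A) RNA was made into TruSeq libraries and sequenced single-end. The submitters' processing notes name STAR, HTSeq, DESeq2, edgeR, limma and GRCm38, without versions. HTSeq lines that name no gene stayed out of library sizes. GENCODE M21 gave symbols for 53274 of 53379 gene IDs.

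The tests used edgeR 4.0.16 under R 4.3.3 on the counts (filterByExpr by group, TMM, glmQLFit and glmQLFTest, two-sided, all 17 libraries in 1 fit), with Benjamini-Hochberg adjustment over 17766 genes and a call at an adjusted p under 0.05. The standard error is the log2 fold change divided by the square root of F. List means use log2 CPM with a prior count of 2. Alternatives used DESeq2 1.42.0, limma 3.58.1, other scalings, no filter, covariates or an offset from marker lists, and libraries left out. The fit was tested on simulated data.

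Replicate numbers follow the order of samples and pair nothing; all 41 pairs within groups differed beyond sampling noise. The labels give 1 batch. Text names all members, up to 3 called genes per pathway list by size of change, all called family members and the 2 nearest patterns. Some genes of the pathway lists are not reported here and stay out of the list counts. Members and lists were chosen with earlier results of these data known. Counting error is small against the spread between mice.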

Additional observations from a re-analysis of the deposited data

Results flagged for a closer look

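In groups of 5 or 7 mice, a single sample was flagged when its gap to the nearest other sample took up most of the whole range of its group (Dixon's criterion at 95%), and chance flags about 1 in 20 groups. Of 96 groups of values 9 were flagged. Atrasentan library 6 was above the other 6 atrasentan libraries in 6 of these. It had 17.4 CPM for Slc5a8 (others 0.378 to 5.38), 36.3 CPM for Slc5a10 (others 1.43 to 11.9) and 23.0 CPM for Slc2a2 (others 2.44 to 9.20). It also had 60.6 CPM for Slc2a4 (others 20.6 to 30.6), 21.8 CPM for Slc2a5 (others 0.553 to 6.17) and 39.5 CPM for the inositol carrier Slc5a3 (others 11.2 to 21.6). Its proximal tubule list mean of 6.61 was the highest of the atrasentan group. Atrasentan library 7, whose proximal tubule mean of 3.87 was the lowest, was flagged for Slc2a5 relative to that mean (-4.59 on the log2 scale, others -3.02 to -2.17). Wild type library 4 was flagged for Slc5a12 (56.2 CPM, others 20.2 to 28.5) and Slc5a9 (6.21 CPM, others 2.06 to 2.74). Its proximal tubule mean of 6.97 was the highest in wild type.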

How the results depend on the processing

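No paired analysis was possible because the labels number no replicates. Of 30 member fold changes, those of Slc5a2, Slc5a10 and Slc5a12 kept their direction in the 3 comparisons under all alternatives, except Slc5a10 in atrasentan against saline. Members called with saline against wild type were 4, and became 7 with DESeq2, 1 with the offset, 0 with either covariate, 0 without saline libraries 1 and 3, 0 without these and atrasentan library 6 (a setting chosen after seeing the data), and 0 to 6 with 1 library left out. Those called with atrasentan against saline were 7, and became 3 with the glomerular share covariate, 0 with that of the proximal tubule, 3 without saline libraries 1 and 3, 6 in the added setting, 6 with the offset (3 lower and 3 higher) and 6 to 8 with 1 library left out. Those called with atrasentan against wild type were 3 (2 lower), and became 5 with the authors' table in limma, without saline libraries 1 and 3 and in the added setting (4 lower in each), 5 with the glomerular share (all lower), 5 with the proximal tubule covariate and 4 with the offset (all higher in both, with the falls of Slc5a2 and Slc5a12 lost), and 2 to 4 with 1 library left out. The cause was not tested.

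All genes called with saline against wild type were 910, and 2000 with DESeq2, 1430 in the fit of 2 groups, 550 with limma-voom, 54 without saline libraries 1 and 3, 102 in the added setting, 56 and 6 with the proximal tubule and glomerular share covariates, 291 with the offset and 216 to 1523 with 1 library left out. With atrasentan against saline they were 6001, and 46, 2118 and 15547 with these covariates and the offset, 2577 without saline libraries 1 and 3 and 3178 in the added setting. With atrasentan against wild type they were 5190, and 12498 with the offset.

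Signs turned as follows (log2 fold changes). In saline against wild type, Slc5a1 was -1.20, -0.83 and -0.76 with the glomerular share, the proximal tubule covariate and the offset, and -0.14 without saline libraries 1 and 3 (-0.14 in the added setting). In the same order Slc2a1 was -0.22, -0.12 and -0.89, and Slc2a4 -0.45, -0.20, -0.79, -0.033 and -0.033. With the glomerular share Slc5a8 was -0.019 and Slc2a5 -0.16, and with the offset Slc2a9 was -0.75. In atrasentan against saline with the proximal tubule covariate, Slc5a1 was 0.53, Slc5a8 0.96, Slc5a10 1.22, Slc2a1 0.60, Slc2a4 0.91, Slc2a5 0.97 and Slc2a9 0.46. With the offset Slc5a1 was 0.38, Slc2a1 2.37, Slc2a4 2.20 and Slc2a9 2.70, and with the glomerular share Slc2a1 was 0.18, Slc2a4 0.24 and Slc2a9 0.22. Without saline libraries 1 and 3 Slc2a1 was 0.0077, Slc2a4 0.073 and Slc2a9 0.28 (0.26 in the added setting), and Slc2a9 was 0.0088 with limma-voom and -0.14 to 0.11 with 1 library left out. In atrasentan against wild type, Slc5a8 was 1.29 and 0.73 and Slc2a5 1.13 and 0.67 with the proximal tubule covariate and the offset, and Slc2a2 was 0.12 with the covariate. With the glomerular share Slc2a1 was -0.045 and Slc2a4 -0.21, in the added setting -0.014 and -0.19, and with upper-quartile scaling Slc2a4 was -0.034. With 1 library left out Slc5a8 ran between -1.16 and 0.28, Slc2a1 between -0.019 and 0.17 and Slc2a4 between -0.19 and 0.26.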
